A study of Mus musculus with 12 samples.

Results

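A set of 9 genes of the cytotoxic granule was followed by symbol: the granzymes Gzma, Gzmb, Gzmc, Gzmk and Gzmm, the pore-forming protein gene Prf1, and the granule genes Nkg7, Srgn and Ctsw. Every array probe whose gene name was one of these symbols was taken, which gave 11 probes of 39429, and 8 of the 9 genes, of 17905 genes in all, were well above background throughout 1 or more groups and entered the fit. Gzmc was the exception. The genes were selected on their measured log2 levels in the 4 groups of arrays, known from earlier results, so those levels and their differences are given as a description with no test.

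Granulocyte-macrophage progenitors, the usual meaning of the label GMP, are bone marrow cells that give rise to neutrophils and monocytes. RNA of sorted mouse GMP was hybridised to 12 one-colour Agilent arrays in 4 groups. The RUNX1-ERt2 group (n = 2, slide 4) and the ERt2 group (n = 2, slide 3) came from Runx1fl/fl-Tg(vav-Cre) marrow taken 3 days after 150 mg/kg 5-fluorouracil, a cytostatic drug. That marrow was transduced with a MIG retrovirus that carried GFP and one of a pair of inserts. RUNX1-ERt2 joins RUNX1 to a domain that responds to tamoxifen, and ERt2 is that domain without RUNX1. The marrow was then transplanted into lethally irradiated recipients, and GFP+ GMP were sorted 6 weeks later, 24 h after tamoxifen at 49.5 µg/g on 3 days. The sample labels of both transplanted groups name tamoxifen, whereas the protocol says that only part of the mice received it. The ko group (n = 4) was GMP of native Runx1fl/fl-Tg(vav-Cre) mice and the wt group (n = 4) GMP of Runx1+/+-Tg(vav-Cre) mice. Each held 2 arrays on slide 1 and 2 on slide 2. All 12 arrays therefore carried the vav-Cre transgene, which drives Cre in blood cells, and RUNX1-ERt2, ERt2 and ko cells are all labelled as Runx1fl/fl. Since slides 3 and 4 hold 1 group each, slide and group cannot be told apart for the transplanted cells. Separate animals behind the replicates are not stated in the labels, and p-values measure only the spread between these arrays.

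Levels are log2 processed intensity minus the 75th percentile of the array, so that 0 is the 75th percentile of all probes. Probe coordinates are those of the files, in mm9. A probe is called well above background where the scanner software marked it so. On each array 53.5% to 63.2% of the probes were well above background. All 12 GMP markers, among them Mpo and Elane, were well above background on every array. Both Runx1 probes were brighter in the arrays labelled ko (means 2.61 and 3.31) than in those labelled wt (1.00 and 1.63). They were dimmer in RUNX1-ERt2 (1.54 and 2.00) than in ERt2 (2.48 and 3.09). The sources used here do not place these probes relative to the floxed segment, so they do not check the deletion, and ko and wt are used as the labels' names throughout.

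Cytotoxic granules are secretory lysosomes of natural killer (NK) cells and cytotoxic T cells. Perforin opens the membrane of a target cell and lets in granzymes, serine proteases that start cell death. Granzymes are made as proenzymes, activated by the cathepsin encoded by Ctsc, and stored on the proteoglycan serglycin. Basophils, mast cells and myeloid progenitors also store serine proteases on serglycin, and in the mouse genome Gzmb shares a locus with the mast cell chymases and the neutrophil protease gene Ctsg. RUNX factors bind the core motif TGTGGT or TGCGGT.

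The promoter windows of Gzmb, Gzmc and Nkg7 are shown because Gzmb and Nkg7 differed most between ko and wt GMP among the 8 genes, and Gzmc is the granzyme nearest to Gzmb. Each runs from 250 bases before to 50 bases after the transcription start, 5′ to 3′ on the gene's strand, in RefSeq GRCm38.p6. Capitals mark TGTGGT or TGCGGT on either strand, the opposite strand reading ACCACA or ACCGCA.
Gzmb, chr14:56262285-56262584, minus strand: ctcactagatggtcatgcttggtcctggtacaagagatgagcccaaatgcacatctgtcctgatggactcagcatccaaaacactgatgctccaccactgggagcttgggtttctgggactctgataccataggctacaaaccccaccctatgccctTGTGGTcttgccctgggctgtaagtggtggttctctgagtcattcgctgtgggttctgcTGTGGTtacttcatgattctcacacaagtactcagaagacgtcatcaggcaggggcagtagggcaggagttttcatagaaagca
Gzmc, chr14:56234608-56234907, minus strand: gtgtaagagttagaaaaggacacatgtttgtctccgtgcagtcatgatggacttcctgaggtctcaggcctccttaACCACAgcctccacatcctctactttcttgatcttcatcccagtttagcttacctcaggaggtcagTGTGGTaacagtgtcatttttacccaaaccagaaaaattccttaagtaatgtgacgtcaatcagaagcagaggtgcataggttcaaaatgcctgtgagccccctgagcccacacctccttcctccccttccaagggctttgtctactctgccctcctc
Nkg7, chr7:43436888-43437187, plus strand: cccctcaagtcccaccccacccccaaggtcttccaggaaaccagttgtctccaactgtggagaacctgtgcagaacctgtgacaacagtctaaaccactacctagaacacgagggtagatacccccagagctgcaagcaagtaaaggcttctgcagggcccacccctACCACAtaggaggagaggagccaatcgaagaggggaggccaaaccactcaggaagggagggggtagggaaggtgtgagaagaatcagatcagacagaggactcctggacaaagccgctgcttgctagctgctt
The Gzmb window holds the motif 93 and 34 bases before the start, both on the gene's strand. The Gzmc window holds it 174 bases before the start on the opposite strand and 108 bases before it on the gene's strand. The Nkg7 window holds it once, 83 bases before the start on the opposite strand. Promoter windows were found for 8 of the 9 genes (all but Ctsw), 10 windows in all. Of these, 8 windows and 7 genes hold the motif at least once, and 2 windows hold it at least 2 times. Among all 32851 promoter windows of that length, 22.4% hold it at least once and 2.86% at least 2 times. A match describes the letters only.

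Gzmb, which encodes granzyme B, a protease that cleaves caspases after aspartate, was far lower in ko than in wt GMP. Its probe (chr14:56877916-56877975, mm9) read −5.32, −4.18, −4.64 and −5.60 in ko GMP, against −0.28, 0.40, 0.82 and 0.40 in wt GMP. Every ko array lay below every wt array, and all 8 were well above background. The ko mean was −4.94 ± 0.64 and the wt mean 0.33 ± 0.45 (SD, n = 4 each), a difference of −5.27 (SE 0.53), or 38.6-fold lower in ko. On slide 1 the difference was −4.81 and on slide 2 it was −5.73. With the normexp background correction over both slides it was −3.99, so the fold depends on how background is handled. In bulk RNA, fewer cells of a type and less RNA per cell cannot be told apart.

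Among transplanted GMP, Gzmb was above background with RUNX1-ERt2 and not with ERt2. It read −5.41 and −2.86 in RUNX1-ERt2 GMP, both well above background, against −6.20 and −6.37 in ERt2 GMP, neither well above background. The RUNX1-ERt2 arrays lay above the ERt2 arrays, and the mean was at least 2.25-fold higher. This bound sets the RUNX1-ERt2 mean against the lowest signal counted as well above background on the ERt2 arrays, on average −5.31. Replicate 1 of RUNX1-ERt2, at −5.41, lay below that signal, so the bound rests on replicate 2 alone. The fitted difference was 2.15 (SE 0.76), and the 2 RUNX1-ERt2 arrays differed from each other by more than that. Without RUNX1-ERt2 replicate 1 the difference was 3.43, and without replicate 2 it was 0.87. With the normexp background correction it was 0.71.

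RUNX1-ERt2 GMP did not reach the wild-type level of Gzmb. The mean of −4.14 ± 1.81 (SD, n = 2) lay 4.47 (SE 0.65) below wt, or 22.2-fold. The size of this gap depended on the processing and on single arrays. With the normexp correction RUNX1-ERt2 minus wt was −3.31. Without RUNX1-ERt2 replicate 1 it was −3.19, and without replicate 2 it was −5.75. One RUNX1-ERt2 array lay within the range of the ko arrays and the other above it. ERt2 GMP, not well above background, read below all ko arrays, and its mean was at least 1.30-fold below the ko mean. Replicates 1 and 4 of ko, at −5.32 and −5.60, lay below the ERt2 signal of −5.31 used for this bound. The bound therefore does not separate them from ERt2. With the normexp correction the difference between ERt2 and ko was −0.03. The order of the group means was wt, RUNX1-ERt2, ko and ERt2, in which RUNX1-ERt2 and ko overlapped.

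Nkg7 encodes a small membrane protein of cytotoxic granules needed for their exocytosis. Its brighter probe (chr7:50693530-50693589, mm9) read 3.05, 2.89, 3.41 and 2.74 in ko GMP, against 4.07, 4.21, 4.93 and 4.42 in wt GMP. No ko array reached the lowest wt array. The means of 3.02 ± 0.29 in ko and 4.41 ± 0.38 in wt (SD, n = 4 each) differed by −1.39 (SE 0.19), 2.61-fold lower in ko, with −1.17 on slide 1 and −1.60 on slide 2.

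With RUNX1-ERt2, Nkg7 was again lower. It read 3.74 and 3.60 in RUNX1-ERt2 GMP, against 5.02 and 5.46 in ERt2 GMP, a difference of −1.57 (SE 0.27). Nkg7 was thus lower both in ko than in wt and in RUNX1-ERt2 than in ERt2, whereas Gzmb was lower in the first contrast and higher in the second. ERt2 GMP lay 2.22 (SE 0.23) above ko GMP, which has the same Runx1fl/fl label, and RUNX1-ERt2 lay 0.74 (SE 0.23) below wt. The order of the means was ERt2, wt, RUNX1-ERt2 and ko, and no 2 neighbours overlapped. The second Nkg7 probe (chr7:50693148-50693207) gave −1.44 for ko minus wt, −1.40 for RUNX1-ERt2 minus ERt2, 1.87 for ERt2 minus ko and −0.97 for RUNX1-ERt2 minus wt.

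**Figure D1:**
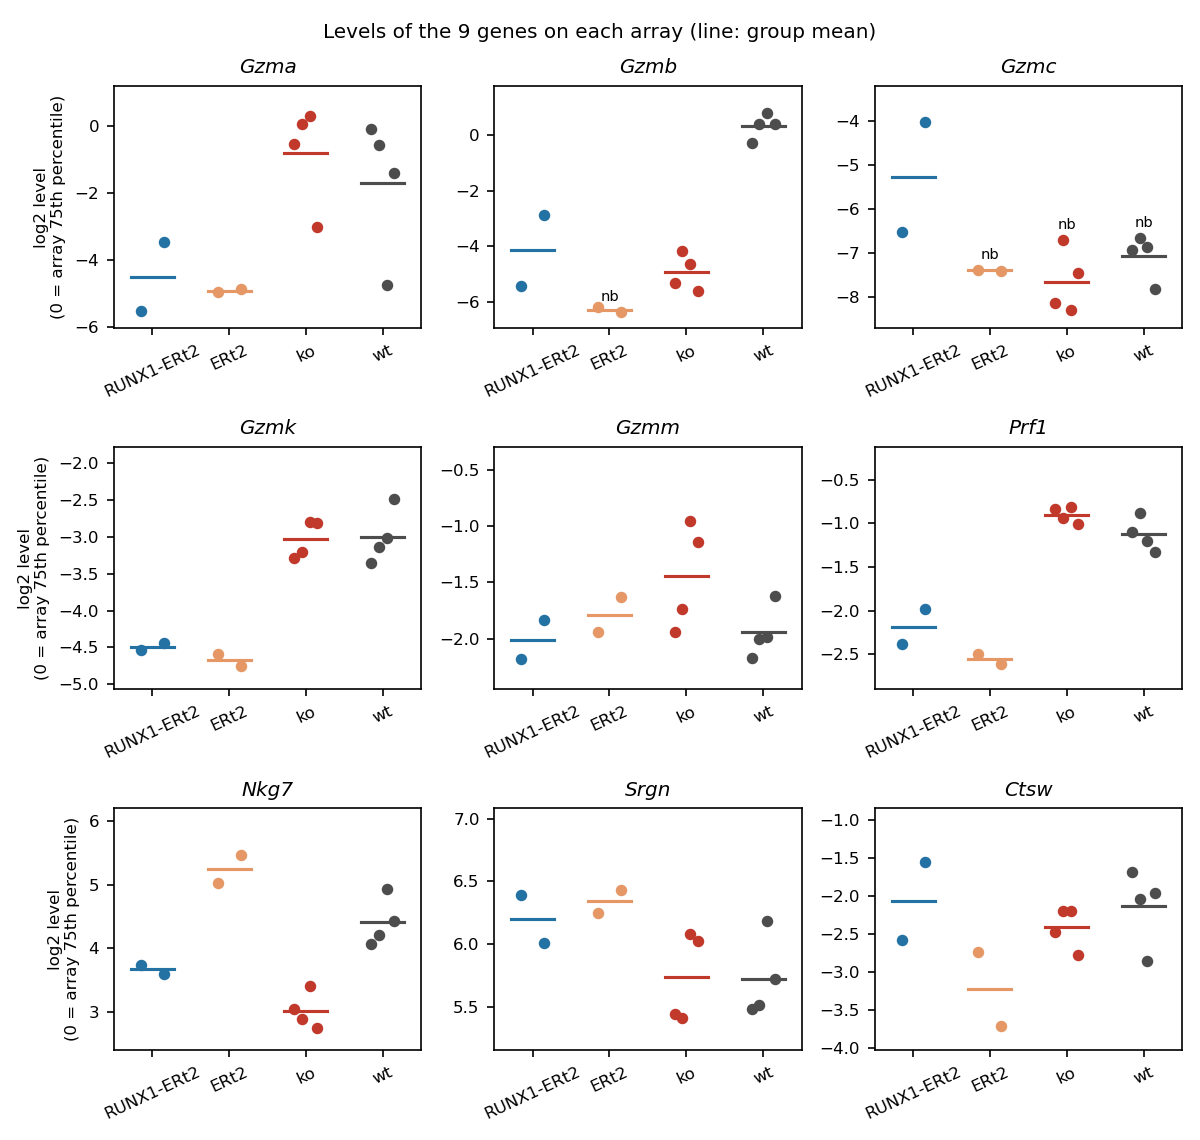
Log2 level of each gene on each array, relative to the 75th percentile of the array (0), with 1 point per array and a line at the group mean (n = 2, 2, 4 and 4 from left to right). The axes differ between panels, and nb marks groups with no array well above background. Gzmb separates ko (−5.60 to −4.18) from wt (−0.28 to 0.82), and Nkg7 is highest in ERt2 (5.02 and 5.46).

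Gzma encodes granzyme A, a protease that cleaves after lysine and arginine. Its probe (chr13:113884035-113884094) read −0.54, 0.06, 0.32 and −3.00 in ko GMP, against −0.07, −0.56, −4.74 and −1.38 in wt GMP. The groups overlapped, and within each the arrays spread over more than 3 log2 units. The difference of 0.89 (SE 0.91) came from slide 2, where it was 1.72 against 0.07 on slide 1, and it was 0.06 without wt replicate 3. In the transplanted groups Gzma was low, at −5.54 and −3.47 in RUNX1-ERt2 GMP and −4.97 and −4.86 in ERt2 GMP. The first of the RUNX1-ERt2 arrays was not well above background. ERt2 lay below every ko array, and its mean was 4.12 (SE 1.11) below the ko mean. With the normexp correction ERt2 minus ko was −2.70, and without ko replicate 3 it was −3.30.

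Gzmk, a tryptase-like granzyme encoded beside Gzma, did not separate ko from wt. Its main probe (chr13:113970774-113971087, across a splice junction) ranged from −3.29 to −2.80 in ko and from −3.35 to −2.49 in wt, a difference of −0.02 (SE 0.12). It read −4.54 and −4.44 in RUNX1-ERt2, against −4.59 and −4.75 in ERt2, a difference of 0.18 (SE 0.17) with no overlap. Both transplanted groups lay below all native arrays, ERt2 by 1.65 (SE 0.14) below ko and RUNX1-ERt2 by 1.49 (SE 0.14) below wt. With the normexp correction these differences shrank to −0.71 and −0.99. The other Gzmk probe (chr13:113961816-113961875) was well above background on 2 ko arrays only.

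Gzmc was not detectable in native GMP. Its probe (chr14:56850307-56850366) was well above background on 1 of 12 arrays, RUNX1-ERt2 replicate 2, where it read −4.01, against −6.52 in replicate 1. The same array had the higher Gzmb level of the 2.

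Gzmm encodes granzyme M, which cleaves after methionine or leucine and lies in the neutrophil elastase gene cluster. Its probe (chr10:79157946-79158005) ranged from −1.94 to −0.96 in ko GMP, against −2.17 to −1.62 in wt GMP. These ranges overlapped, and the difference was 0.50 (SE 0.15), with 0.25 on slide 1 and 0.75 on slide 2. In the transplanted groups it read −2.19 and −1.84 in RUNX1-ERt2, against −1.94 and −1.63 in ERt2, and no neighbours in the order of the group means were separated.

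Prf1, the perforin gene, was similar in ko and wt and lower in both transplanted groups than in native GMP. Its probe (chr10:60766941-60767000) read −0.83, −0.93, −0.81 and −1.01 in ko GMP, against −1.09, −0.88, −1.20 and −1.33 in wt GMP, a difference of 0.23 (SE 0.11) with overlapping groups. It read −2.39 and −1.98 in RUNX1-ERt2, against −2.50 and −2.61 in ERt2, a difference of 0.37 (SE 0.16) with no overlap. ERt2 lay 1.66 (SE 0.14) below ko and RUNX1-ERt2 lay 1.06 (SE 0.14) below wt, in both cases with no overlap. With the normexp correction ERt2 minus ko was −1.28.

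Srgn encodes serglycin, the core protein of the proteoglycan that stores granule proteases in myeloid and lymphoid cells. Its probe (chr10:61957432-61957491) read 5.44, 5.41, 6.08 and 6.03 in ko GMP, against 5.48, 5.51, 6.19 and 5.72 in wt GMP. These overlapped with a difference of 0.02 (SE 0.12). It read 6.39 and 6.00 in RUNX1-ERt2, against 6.25 and 6.43 in ERt2. Srgn was thus near its wild-type level in the same cells in which Gzmb was 38.6-fold lower without the normexp correction. Srgn lay 0.60 (SE 0.15) higher in ERt2 than in ko.

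Ctsw encodes cathepsin W, a cysteine protease of NK and cytotoxic T cells. Its probe (chr19:5465315-5465374) read −2.47, −2.20, −2.19 and −2.78 in ko GMP, against −1.69, −2.04, −2.85 and −1.96 in wt GMP, a difference of −0.27 (SE 0.32). It read −2.58 and −1.55 in RUNX1-ERt2, against −2.74 and −3.71 in ERt2, a difference of 1.16 (SE 0.45). The transplanted groups did not overlap, but the 2 arrays of each differed by about as much as the groups did.

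**Figure D2:**
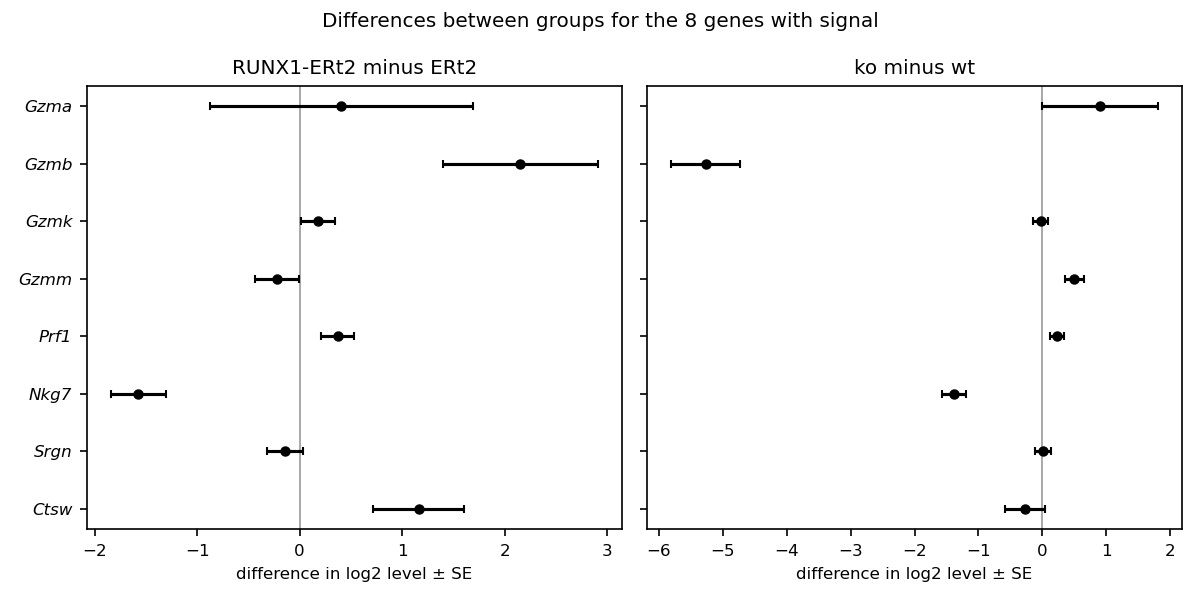
Fitted difference in log2 level (points) with its standard error (bars) for the 8 genes with signal, RUNX1-ERt2 minus ERt2 on the left and ko minus wt on the right, on separate horizontal scales. Gzmb lies at 2.15 and −5.27, on opposite sides of 0, and Nkg7 at −1.57 and −1.39, on the same side. Gzmb was not well above background in ERt2.

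In the limma fit over all 17905 genes, with Benjamini-Hochberg adjustment and a threshold of 0.05, 3 of the 8 genes were past the threshold in ko minus wt (Gzmb and Nkg7 lower, Gzmm higher), where 25.7% of all genes were (11.3% higher, 14.5% lower). With the replicate number as a block, 2 of the 8 were, without Gzmm. For RUNX1-ERt2 minus ERt2 it was 1 of 8 (Nkg7, lower), where 19.3% of all genes were (10.2% higher, 9.07% lower). In ERt2 minus ko it was 5 of 8 (Gzma, Gzmk and Prf1 lower, Nkg7 and Srgn higher), where 56.4% of all genes were (28.7% higher, 27.7% lower). In RUNX1-ERt2 minus wt it was 5 of 8 (Gzmb, Gzmk, Prf1 and Nkg7 lower, Srgn higher), where 45.7% of all genes were (20.1% higher, 25.6% lower). The groups did not overlap for 2, 5, 6 and 4 of the 8 genes in these comparisons in turn, against 23.5%, 59.0%, 62.7% and 56.0% of all genes. The rule that chose the genes used these contrasts, so nothing is read from the counts. Comparisons that share a group share its arrays.

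The genes around Gzmb were examined because the granzyme B locus holds a row of related proteases. None of Gzmd, Gzme, Gzmf, Gzmg and Gzmn had signal in any group, and Gzmg was well above background on 1 ko array only. Of 8 chymase and cathepsin G genes of the locus, 4 had signal. In ko minus wt, 3 of these 4 fell and none rose, with a median of −2.03 against −0.05 over all genes. Mcpt8, a basophil protease encoded 175.6 kb from Gzmb, averaged −1.22 in ko and 2.13 in wt and fell by 3.35 (SE 0.12, adjusted p = 2.25e-06). Cma1, a mast cell chymase 316.4 kb away, was not well above background in ko and averaged −4.71 in wt, which makes it at least 2.94-fold lower (adjusted p = 0.000966). Ctsg, the neutrophil cathepsin G gene 159.1 kb away, averaged 6.76 in ko and 7.51 in wt and fell by 0.75 (SE 0.23, adjusted p = 0.0418). With the replicate block its adjusted p was 0.062. Cma2 averaged −2.33 in ko and −2.19 in wt (adjusted p = 0.298).

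With RUNX1-ERt2, 2 of the 4 fell and none rose, with a median of −0.48 against −0.00 over all genes. Ctsg averaged 6.77 in RUNX1-ERt2 and 8.18 in ERt2 (−1.41, SE 0.32, adjusted p = 0.0154), and Mcpt8 −0.29 and 0.61 (−0.90, SE 0.17, adjusted p = 0.00583). Mcpt8 and Gzmb, both lower in ko than in wt, thus differed from ERt2 in opposite directions in RUNX1-ERt2 cells. The difference between the 2 genes was not tested.

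**Figure D3:**
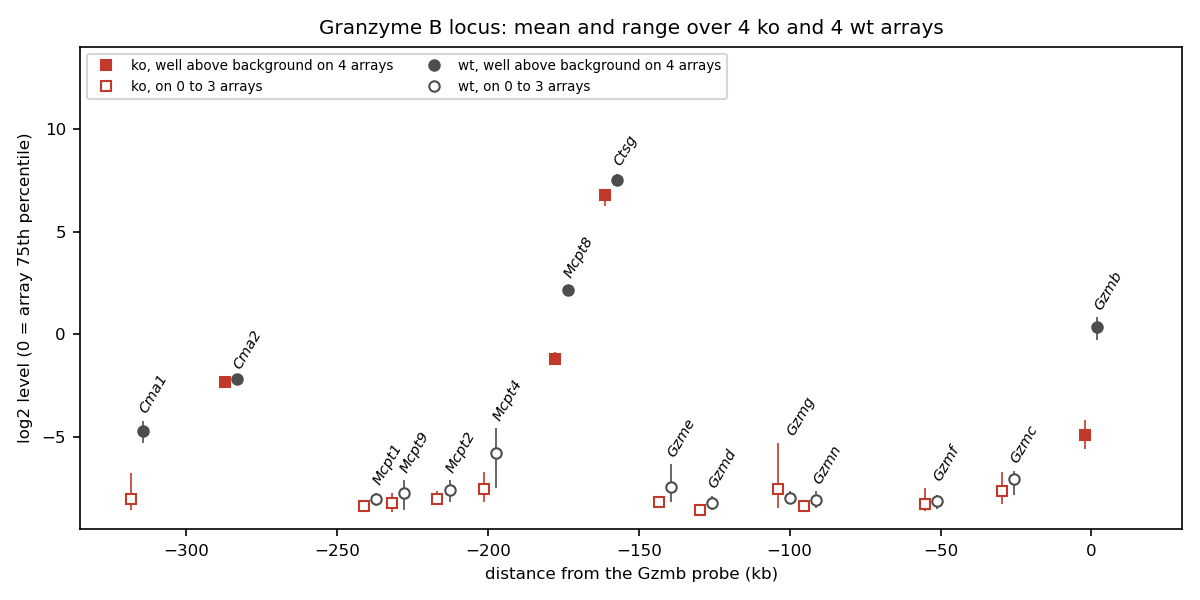
Mean log2 level (points) and range over 4 arrays (bars) of the brightest probe in wt for each gene of the granzyme B locus, in ko (squares) and wt (circles), against the distance of the probe from the Gzmb probe in kb (mm9). Open symbols mark groups with fewer than 4 arrays well above background. The intervening granzymes lie at the floor in both groups, and Mcpt8, Cma1 and Gzmb lie well apart.

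Gzmm lies among neutrophil serine protease genes. Of Elane, Prtn3, Cfd and Prss57, 3 fell in ko minus wt and none rose, with a median of −1.10. Prss57, a neutrophil serine protease gene, fell by 2.11 (SE 0.39, adjusted p = 0.00513), Elane by 1.14 (SE 0.36, adjusted p = 0.0471) and Prtn3 by 1.06 (SE 0.34, adjusted p = 0.0494), while Gzmm was 0.50 higher. The calls of Elane and Prtn3 lay close to the threshold and were lost under 15 and 19 of 25 other settings. Between RUNX1-ERt2 and ERt2, Elane fell by 2.38 (SE 0.52, adjusted p = 0.0116) and Cfd by 1.29 (SE 0.39, adjusted p = 0.0486). With the replicate block the adjusted p of Cfd was 0.0887, and its call was lost under 18 of 23 other settings.

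Genes that activate granzymes or sort them to granules fell in ko GMP in 5 of 7 cases, with none higher and a median of −0.36. The receptor gene Igf2r, which carries mannose-6-phosphate proteins to lysosomes, averaged −4.14 in ko and −2.34 in wt and fell by 1.79 (SE 0.38, adjusted p = 0.00933). Ctsh, a cathepsin that can activate progranzyme B, averaged 0.36 in ko and 2.08 in wt and fell by 1.72 (SE 0.38, adjusted p = 0.0118). Ctsl fell by 0.59 (SE 0.08, adjusted p = 0.0014) and Gnptab, an enzyme that makes the mannose-6-phosphate tag, by 0.36 (SE 0.10, adjusted p = 0.0288). With the replicate block the adjusted p of Gnptab was 0.0714, and its call was lost under 15 of 25 other settings. Ctsc, the main activator of granzymes, averaged −0.22 in ko and 0.12 in wt (adjusted p = 0.182). With RUNX1-ERt2, against ERt2, Ctsl rose by 0.49 (SE 0.12, adjusted p = 0.0186) and Ctsh fell by 2.14 (SE 0.54, adjusted p = 0.023), and the other 5 did not pass.

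Of 15 measured genes of the granule membrane and its exocytosis, 3 rose and 2 fell in ko minus wt, with a median of 0.10. Cd63, a tetraspanin of lysosomes and basophil granules, averaged 3.71 in ko and 5.01 in wt and fell by 1.30 (SE 0.10, adjusted p = 7.69e-05). Rab27a, a GTPase that docks granules, fell by 0.70 (SE 0.22, adjusted p = 0.049), a call lost under 20 of 25 other settings. Stx11, a SNARE of granule fusion, rose by 0.77 (SE 0.22, adjusted p = 0.0315, and 0.0553 with the replicate block), and the priming factor gene Unc13d rose by 0.58 (SE 0.12, adjusted p = 0.00947). The call of Stx11 was lost under 14 of 25 other settings. Of the same 15 genes, 2 rose and 3 fell in RUNX1-ERt2 minus ERt2. Cd63 rose by 0.93 (SE 0.15, adjusted p = 0.00228), Lyst, a regulator of lysosome size, fell by 1.31 (SE 0.30, adjusted p = 0.0156), Stxbp2, the binding partner of Stx11, fell by 0.61 (SE 0.12, adjusted p = 0.00595), and Lamp2, a lysosomal membrane protein gene, fell by 0.56 (SE 0.13, adjusted p = 0.0159).

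Inhibitors of granule proteases mostly did not pass. Serpinb9, the mouse serpin that inhibits granzyme B, averaged −1.54 in ko and −2.38 in wt and rose by 0.84 (SE 0.15, adjusted p = 0.0041), the single call among 7 inhibitors. Slpi, an inhibitor of neutrophil elastase and cathepsin G, averaged 0.81 in RUNX1-ERt2 and 5.63 in ERt2 and fell by 4.82 (SE 0.38, adjusted p = 4.75e-05), the single call in that comparison. Of the perforin-like proteins, 2 of 7 had signal, and Mpeg1, the perforin-2 gene of phagocytes, fell by 1.61 in ko minus wt (SE 0.41, adjusted p = 0.0197) and by 2.40 in RUNX1-ERt2 minus ERt2 (SE 0.57, adjusted p = 0.0184).

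Enzymes that build the glycosaminoglycan chains of serglycin changed in both directions, 2 up and 1 down of 11 in ko minus wt, with a median of −0.03. Chst15, which makes the disulfated chondroitin sulfate of mast cell granules, rose by 0.81 (SE 0.12, adjusted p = 0.00157) and the sulfotransferase gene Chst11 by 0.66 (SE 0.09, adjusted p = 0.00147), while Chsy1, which extends chondroitin chains, fell by 0.93 (SE 0.14, adjusted p = 0.00183). Of the same 11 genes, 1 rose and 2 fell in RUNX1-ERt2 minus ERt2. Ndst2, which sulfates mast cell heparin, rose by 0.92 (SE 0.12, adjusted p = 0.001). Chst15 fell by 0.68 (SE 0.16, adjusted p = 0.0191). Xylt1, which starts the chains, was not well above background in RUNX1-ERt2 and was at least 1.89-fold lower (adjusted p = 0.00112).

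Among 12 regulators of cytotoxic genes, 3 rose and 1 fell in ko minus wt, with a median of 0.29. Runx3, the RUNX factor of cytotoxic T cells, averaged 0.56 in ko and 0.08 in wt and rose by 0.48 (SE 0.10, adjusted p = 0.0085). Stat5b rose by 0.61 (SE 0.09, adjusted p = 0.00147), Stat5a rose by 0.41 (SE 0.12, adjusted p = 0.0336), and Id2, an E protein inhibitor of innate lymphocytes, fell by 0.92 (SE 0.16, adjusted p = 0.00445). The call of Stat5a was lost under 10 of 25 other settings. In RUNX1-ERt2 minus ERt2, Runx3 averaged −2.30 and −0.41 and fell by 1.89 (SE 0.14, adjusted p = 3.45e-05), and Gfi1, which encodes a transcriptional repressor, fell by 1.46 (SE 0.40, adjusted p = 0.0339). The call of Gfi1 was lost under 10 of 23 other settings. Tbx21 and Eomes, the T-box factors of NK and cytotoxic T cells, did not pass. Tbx21 averaged −4.17 in ko and −4.42 in wt (adjusted p = 0.802), and Eomes −4.44 in ko and −5.12 in wt (adjusted p = 0.49).

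Markers of lymphoid cells were set beside the members because NK and cytotoxic T cells are the usual source of these genes. Most NK cell markers lay below the 75th percentile of the array, but Cd244a averaged 1.63 in ko, 1.64 in wt, 1.45 in RUNX1-ERt2 and −0.63 in ERt2. Of the 12, 10 to 12 were well above background in ko, 4 to 10 in wt, 6 or 7 in RUNX1-ERt2 and 3 or 8 in ERt2. The log2 of their summed level was 1.66 to 3.14 in ko, 1.71 to 3.37 in wt, 1.29 to 2.01 in RUNX1-ERt2 and −0.22 to 0.13 in ERt2, and it rested mostly on Cd244a and, in ko replicate 4 and wt replicates 3 and 4, also on Klra1. In ko minus wt 1 of 11 passed, Itga2, which was at least 1.35-fold higher (adjusted p = 0.0217) but reversed with the normexp correction. In RUNX1-ERt2 minus ERt2, 2 of 11 rose, Klrg1 at least 2.47-fold (adjusted p = 0.00687) and Cd244a by 2.08 (adjusted p = 0.0048). For T cell markers the log2 summed level was 2.84 to 3.57 in ko, 2.18 to 2.66 in wt, 2.16 to 2.94 in RUNX1-ERt2 and 1.56 to 2.15 in ERt2. Cd8a was well above background on no array, and Cd8b1, Cd247 and Trat1 were so on some arrays but in no group on all. In ko minus wt, Lat rose by 2.52 (adjusted p = 0.000553) and Lck fell by 1.31 (adjusted p = 0.00711), with a median of 0.13 over 11 genes. Between RUNX1-ERt2 and ERt2 the median was 0.94 against −0.00 over all genes. There Cd5 rose by 1.83 (adjusted p = 0.0145), Lck rose by 1.44 (adjusted p = 0.0237, and 0.0523 with the replicate block) and Cd28 fell by 0.90 (adjusted p = 0.0281). The part of T cells in the Gzmb levels was not tested. None of 7 further effectors of cytotoxic lymphocytes, such as Ifng and Ccl5, passed in either comparison (smallest adjusted p 0.084 in ko minus wt, for Crtam, and 0.075 in RUNX1-ERt2 minus ERt2, for Tnfsf10).

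Within wt and within ko GMP, Gzma was lowest where most NK markers were lowest. In wt replicate 3, 9 of the 12 markers were at their lowest of the wt arrays, and in ko replicate 4 the same 9 were at their lowest of the ko arrays. The other 3 were Klra1, Cd244a and Itga2, which in ko replicate 4 were at their highest of the ko arrays. In wt replicate 3, where Gzma was lowest of the wt arrays at −4.74, Klra8 was at −6.47, Il2rb at −6.42, Ncr1 at −8.44 and Klrc1 at −8.39. In wt replicates 1, 2 and 4 Klra8 lay between −2.54 and −1.66, Il2rb between −2.65 and −1.95, Ncr1 between −5.25 and −4.16 and Klrc1 between −4.16 and −2.87. Gzma in ko replicate 4, at −3.00, was the lowest of the ko arrays. In RUNX1-ERt2, replicate 1 had both the lower NK marker mean and the lower Gzma. In ERt2 the marker mean was lower in replicate 2 (−5.94 against −4.965), while Gzma was −4.86 there and −4.97 in replicate 1. The part of NK cells in the Gzma levels was not tested.

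In wt GMP, Gzmb and Nkg7 did not follow that order. The wt array with 4 of 12 NK markers well above background, replicate 3, had the highest Gzmb level of all arrays, 0.82, and the highest wt level of Nkg7, 4.93. The mean log2 level of the NK markers there was −5.66, below all 4 ko arrays, which ranged from −4.02 to −3.11. Without wt replicate 3 the Gzmb difference was −5.09 and that of Nkg7 −1.24. In ko GMP, by contrast, Gzmb had the same array order as the NK marker mean. It read −4.18 in replicate 2, −4.64 in replicate 3, −5.32 in replicate 1 and −5.60 in replicate 4. The marker mean was −3.11, −3.28, −3.61 and −4.02 in turn. Nkg7 was also lowest in ko replicate 4, at 2.74, but highest in replicate 3, at 3.41. The part of NK cells in these levels was not tested. In the transplanted groups, RUNX1-ERt2 replicate 2, with the higher Gzmb, Gzmc, Gzma and Ctsw, also had higher means of lymphoid markers than replicate 1. The NK marker mean was −4.565 there against −5.51 in replicate 1, and the T cell marker mean −2.955 against −4.015. Cd2 was at −3.28 against −6.30, Il2rb at −3.04 against −5.81 and Klrc1 at −4.70 against −7.85. Not all markers were higher in replicate 2. Among those lower there were Klrg1 (−4.16 against −3.84) and Klra8 (−5.71 against −5.57). The effectors Ccl3 (−6.96 against −2.37) and Ccl4 (−3.18 against −2.21) were also lower. The part of lymphoid cells in the RUNX1-ERt2 result was not tested.

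**Figure D4:**
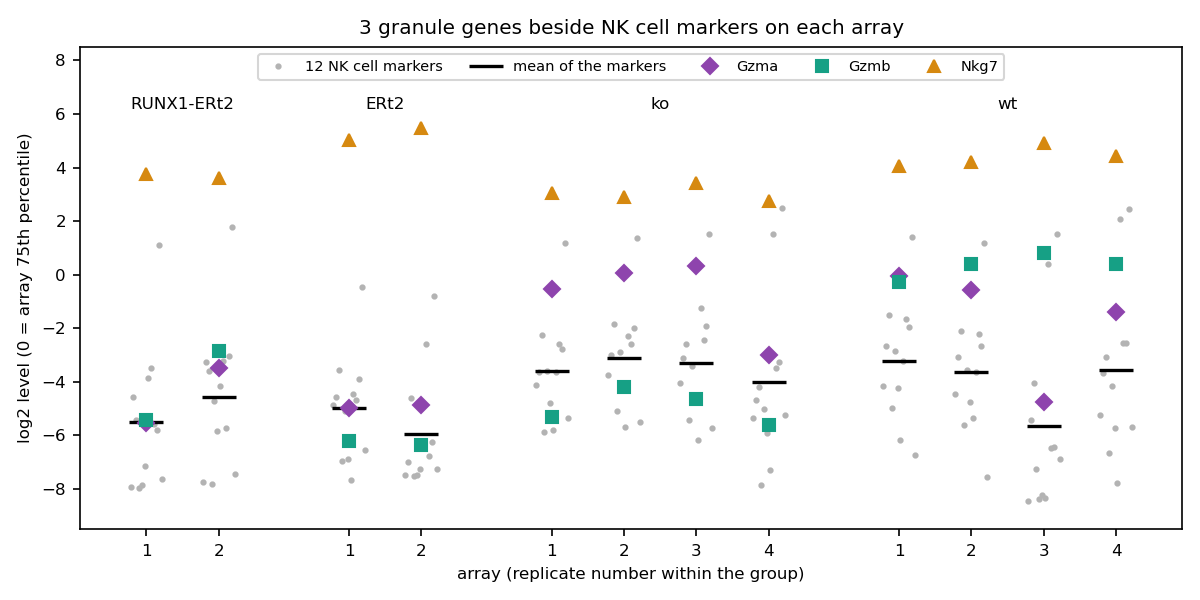
Log2 level of 12 NK cell markers (grey points), their mean (black bar), Gzma (diamonds), Gzmb (squares) and Nkg7 (triangles) on each of the 12 arrays. In wt replicate 3 the marker mean (−5.66) and Gzma (−4.74) are at their lowest of the wt arrays while Gzmb (0.82) is at its highest.

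Basophil and mast cell markers moved in both directions. Of 12 with signal, 5 fell and 4 rose in ko minus wt, with a median of −0.07 against −0.05 over all genes. Prss34, a basophil protease, averaged −6.04 in ko, where 2 of 4 arrays were well above background, and 2.06 in wt, and fell by 8.10 (SE 0.57, adjusted p = 4.19e-05). Fcer1a, the IgE receptor alpha chain, was not well above background in ko and was at least 54.6-fold lower (adjusted p = 8.33e-05). Cd200r3, a receptor of basophils and mast cells, averaged −0.50 in ko and −4.65 in wt and rose by 4.15 (SE 0.16, adjusted p = 2.51e-06). Il4 rose by 2.83, Cpa3 by 1.91 and Il1rl1 by 1.77. The log2 summed level of the 14 markers was 5.96 to 6.49 in ko and 5.29 to 5.51 in wt, with 9 or 10 well above background in ko and 12 or 13 in wt. In RUNX1-ERt2 minus ERt2, 3 rose and 2 fell. Prss34 averaged 1.48 in RUNX1-ERt2 and −1.81 in ERt2 and rose by 3.29 (SE 0.80, adjusted p = 0.02), Ms4a2, the IgE receptor beta chain, rose by 2.71 (SE 0.28, adjusted p = 0.000245), and Hdc, the histamine-forming enzyme, fell by 2.45 (SE 0.24, adjusted p = 0.000171). The part of these cells in the Gzmb levels was not tested.

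Of the progenitor's own markers, 7 of 12 fell and 1 rose in ko minus wt, with a median of −0.52. Of these 8 calls, Mpo, Elane, Prtn3, Ctsg, Cd34 and Kit lay close to the threshold (adjusted p = 0.0416 to 0.0494), and Elane, Prtn3 and Ctsg were lost under 15, 19 and 17 of 25 other settings. Irf8, a factor of monocyte and dendritic fates, fell by 1.57 (SE 0.28, adjusted p = 0.0044) and Cebpa, the granulocyte factor, by 0.93 (SE 0.16, adjusted p = 0.00354). In RUNX1-ERt2 minus ERt2, 4 fell, among them Csf1r, the receptor for macrophage colony-stimulating factor, by 2.45 (SE 0.41, adjusted p = 0.00329) and Fcgr3 by 1.61 (SE 0.44, adjusted p = 0.0318). Plasmacytoid dendritic cells can also express Gzmb, and 2 of their 8 markers with signal fell in ko minus wt. Cox6a2 fell by 2.06 (adjusted p = 0.00842) and Ccr9 by 1.34 (adjusted p = 0.0143), whereas none of the 8 passed in RUNX1-ERt2 minus ERt2. The log2 summed level of 9 such markers was 5.92 to 6.54 in ko and 6.11 to 6.74 in wt, and their part in the Gzmb levels was not tested.

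For the 4 members whose group means varied most, the 3 other genes with the most similar profile were listed by Pearson correlation over the 12 arrays. The arrays share groups and slides, so this is a description. For Gzmb they were Ncs1 (r = 0.985), Lysmd2 (0.980) and Cd96 (0.976). For Gzma they were Klra23 (r = 0.954), Samd3 (0.953) and Gbp11 (0.949). For Nkg7 they were Txndc11 (r = 0.973), Tuba4a (0.969) and Usp5 (0.966). For Gzmk they were Cetn1 (r = 0.990), P2rx3 (0.987) and Ppp1r3b (0.985).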

How the data were processed

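Groups, replicate numbers and treatments were taken from the sample labels. Spot intensity was deposited as Agilent Feature Extraction output, background-subtracted and detrended, version 10.7.3.1 and mm9 coordinates per the file headers (9.1 per the submitters' processing notes), with no normalization between arrays. The authors' deposited value table holds signal that matched the same processed intensity divided by 1 constant per array (column medians 0.91 to 0.94), and its wt and ko columns matched another replicate of the same group. Probes were named through RefSeq tables (27234 by accession, 3576 by symbol, 565 by synonym) or kept the file's name (8054).

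Flagged spots (129 to 207 per array) were left out. Log2 intensity minus the array's 75th percentile was computed from the deposited values. Each gene is represented by its brightest probe and was tested if all arrays of 1 or more groups had it well above background. One limma fit (3.58.1, R 4.3.3) of group means and slide covered 12 arrays (7 residual and 2.08 prior degrees of freedom). The script was tested on simulated data. Members and lists were chosen with earlier results of these data known. Of the other genes, up to 4 per list and comparison past the threshold with the largest difference, or else the one with the smallest p, could be named, and a few others beside them were named after their values were seen. Deviations of same-numbered ko and wt arrays correlated at 0.177 to 0.673 over genes, and at −0.451 to 0.272 once the slide was removed. Removing the slide itself pushes the correlation of same-slide arrays below 0. These values therefore cannot decide whether the numbers pair the arrays. The fit holds no replicate block, which was run as an alternative. The number of arrays limits the precision.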

Additional observations from a re-analysis of the deposited data

Results flagged for a closer look

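In 128 groups of 4 arrays, over 64 genes, 12 arrays stood apart from the other 3 of their group beyond Dixon's critical value for groups of 4, where chance gives about 5%. None concerned a member. In ko, replicate 4 stood apart for Chst15 (−0.69, the others −0.41 to −0.37), Fcer1a (−7.10, the others −8.33 to −8.12), Stat5a (3.17, the others 2.84 to 2.87) and Stxbp2 (3.38, the others 3.22 to 3.25). Replicate 2 of ko stood apart for Cma1 (−6.74, the others −8.58 to −8.40) and Il4 (−0.64, the others −0.88 to −0.85), and replicate 3 for Igf2r (−3.04, the others −4.56 to −4.39). In wt, replicate 3 stood apart for Hdc (4.02, the others 3.73 to 3.77), Lck (0.0897, the others 0.42 to 0.45) and Tnfsf10 (−0.74, the others −0.36 to −0.30), and replicate 4 for Irf8 (3.80, the others 4.58 to 4.64) and Serpinb9 (−2.09, the others −2.50 to −2.47).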

How the results depend on the processing

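In ko minus wt the members past the threshold numbered 3, and 1 within slide 2 alone, with 2 to 3 when 1 array was left out. Genes past it numbered 4608, against 2052 with normexp, 368 within slide 2 and 2907 to 4911 leaving out 1 array. The member count in RUNX1-ERt2 minus ERt2 was 1, with 1 to 2 leaving out 1 array and 2 with crossed numbers in the replicate block, a setting chosen after seeing the data because same-numbered transplanted arrays correlated at −0.191. Genes there numbered 3453, against 1400 with normexp, 1664 with the 4 arrays alone and 2178 to 3714 leaving out 1 array. With the block crossed in place of same-numbered, 4036 in place of 3113 genes passed. ERt2 minus ko gave 10091 genes, against 6366 with normexp and 15206 without the filter, and 5 members, with 3 to 6 leaving out 1 array. RUNX1-ERt2 minus wt gave 8184 genes, against 4706 with normexp, and 5 members, with 3 without the filter and 3 to 6 leaving out 1 array. The replicate block gave 3811 genes in ko minus wt and, beyond the results named with it, changed no other call of the named genes but Lck in RUNX1-ERt2 minus ERt2 (adjusted p = 0.0523). Under every alternative setting, 4 of 33 calls of named list genes held in ko minus wt, and 8 of 28 in RUNX1-ERt2 minus ERt2. In the latter, the call of Ctsl was lost under 8 of 23 other settings. Those of Cd28 and Lamp2 were lost under 7, and those of Fcgr3 and Chst15 under 6. In ko minus wt with normexp, Itga2 reversed to −0.45 and Crtam to −0.0895; the cause was not tested. Scaling by the array median raised the share of higher calls to 59% from 43.8% in ko minus wt, 63.5% from 50.9% in ERt2 minus ko and 56.2% from 44% in RUNX1-ERt2 minus wt, and the deposited table gave 58.7%, 63.3% and 56.3%. It moved the median of all genes to 0.24 in ERt2 minus ko, where normexp gave 0.13 and no filter 0.35 (66.7% higher), and to 0.11 in RUNX1-ERt2 minus wt. In ko minus wt that median was −0.16 with normexp and −0.15 without the filter. Of 744 repeats of member differences, 28 moved by more than 1 SD. Many repeats could not move, such as those that left out an array of a group outside the comparison. The count therefore does not measure stability. Reversal was recorded only for differences past the threshold, and none of these reversed. Below the threshold, Gzma in RUNX1-ERt2 minus ERt2 changed sign to −0.63 without RUNX1-ERt2 replicate 2. Normexp put Gzmb at −3.99 in ko minus wt and −0.03 in ERt2 minus ko. Dim probes limit Gzmb in ERt2 and Gzmc.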
